A study of Mus musculus with 45 samples.

Results

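The retinoic acid response of heterozygous ΔPG cells was measured by RNA-seq in 6 of the 45 samples of the series. Members were all samples labelled as heterozygous PG cells in the table of PG samples, 3 treated with retinoic acid (RA) and 3 control samples that the labels call ES. The comparison covered the 21979 of 33924 genes in that table whose values varied, and the other 11945 genes were 0 in every sample. The question was how the transcriptome of mouse embryonic stem cells (ESCs) with 1 intact copy of the long noncoding RNA 5430416N02Rik differs after RA treatment.

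ΔPG cells are mouse ESCs of 129 strain background in which a puromycin cassette driven by the PGK promoter stands in place of 5430416N02Rik, its promoter included. The heterozygous cells carry this replacement on 1 allele and keep the other. Controls carry the same replacement, so neither group is wild type. Routine growth was in serum with LIF, without feeder cells, and the groups received 2 µM RA or DMSO for 48 h. Whether LIF was kept during these 48 h is not given in the sources used here. The study describes 3 biological replicates and worked with more than 1 heterozygous clone, but which clone gave these libraries is not given in the sources used here, so whether the spread between samples includes that between clones is unknown. Homozygous ΔPG cells (6 samples in the same table) and heterozygous ΔG cells, in which a GFP and puromycin cassette replaces the gene body alone (6 samples in a separately normalized table), are used where a difference from other RA responses is described.

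Expression is given as the deposited regularized log (rlog) value, on a log2 scale, so that a difference of 1 is a fold of 2. The transformation pulls genes with few reads towards their mean, which understates their differences. Read counts are not in the table, and the depth per sample is unknown from it. Replicates lay close together, with a median SD over genes of 0.079 in ES and 0.0732 in RA. Genes counted as called had a limma p-value under 0.1 after Benjamini-Hochberg adjustment and differed by more than 0.5.

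The targeted gene was measured first. 5430416N02Rik lies on chromosome 5 at 100849861 to 100858535, minus strand (NCBIM37), between Sec31a and Lin54. Its rlog values were 4.62, 4.58 and 4.59 in the ES samples and 4.24, 3.80 and 4.44 in the RA samples. The RA samples lay below the ES samples and were more spread, with an SD of 0.329 against 0.0186. The difference of -0.44 (SE 0.164, adjusted p = 0.0604) missed the limit on size and was not called. Without RA replicate 3 it was -0.58 (adjusted p = 0.0198) and called, and without RA replicate 2 it was -0.26 (adjusted p = 0.102). Homozygous cells, without an intact copy, had means of 2.30 in ES and 2.35 in RA, so the levels follow the genotype labels. Sec31a, a coat protein gene of vesicles leaving the endoplasmic reticulum, differed by 0.08 (SE 0.0399, adjusted p = 0.158). Lin54, a DNA-binding subunit of the DREAM cell cycle repressor, differed by 0.25 (SE 0.0572, adjusted p = 0.00818) and was not called either. Mid1, a microtubule-associated ubiquitin ligase gene on the X chromosome that the study followed, had values of 8.49, 8.45 and 8.49 in ES and of 8.51, 8.50 and 8.55 in RA. Its difference was 0.04 (SE 0.029, adjusted p = 0.268).

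Of the 21979 genes, 3960 (18%) were called higher in RA and 2987 (13.6%) lower, 31.6% in all. The median difference over all genes was 0.01, and 90% of genes lay between -0.97 and 1.34. Under a stricter rule, an adjusted p under 0.05 and a difference over 1, 1766 genes (8.03%) were higher and 1015 (4.62%) lower, 12.7% in all. Samples of both groups did not overlap for 30.6% of genes with RA above ES and 25.5% with RA below ES. Among the 11902 genes whose mean rlog value reached 3, 3183 were higher and 2711 lower when tested alone. These are larger shares than over all genes, and counts of list members below are to be read beside both.

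These counts have to be read with the GC content of the genes, because the ES libraries of the heterozygous cells stood apart. Over the 11904 genes whose mean rlog value reached 3, the deviation of a library from the gene mean correlated with exonic GC content at r = 0.333, 0.339 and 0.335 in the 3 heterozygous ES libraries. The 3 heterozygous RA libraries had r = -0.0476, -0.0359 and -0.0565, and the 3 homozygous ES libraries r = -0.263, -0.238 and -0.292. These correlations run across genes, which are not independent, and describe the libraries without a test. Where exonic GC content was lowest, in 10% of the genes, 45.9% of genes were called higher in RA and 5.54% lower, and the median difference was 0.45. In the 10% with the highest GC content, 21.3% were called higher and 36.5% lower, and the median difference was -0.26. Homozygous ΔPG and heterozygous ΔG cells showed the opposite slope, with medians of -0.18 and -0.16 in the lowest 10% and of 0.18 and 0.22 in the highest. When the GC trend of each library was removed, 2883 genes (24.2% of the 11902 then tested) were higher and 2506 (21.1%) lower (45.3% in all). Without correction 5890 of the 11902 had been called, and 4701 of these kept their call. None of the 5890 was called in the opposite direction. Gene length also separated the groups, with r = -0.155, -0.159 and -0.154 between deviation and exonic length in the heterozygous ES libraries and 0.216, 0.213 and 0.217 in the heterozygous RA libraries. With the length trend removed in place of the GC trend, 2943 genes were higher and 2746 lower. Whether these trends arose in the cells or in the libraries cannot be told apart here, and differences with the GC trend removed are given below where they end a call or move a list's median by more than 0.3.

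**Figure D1:**
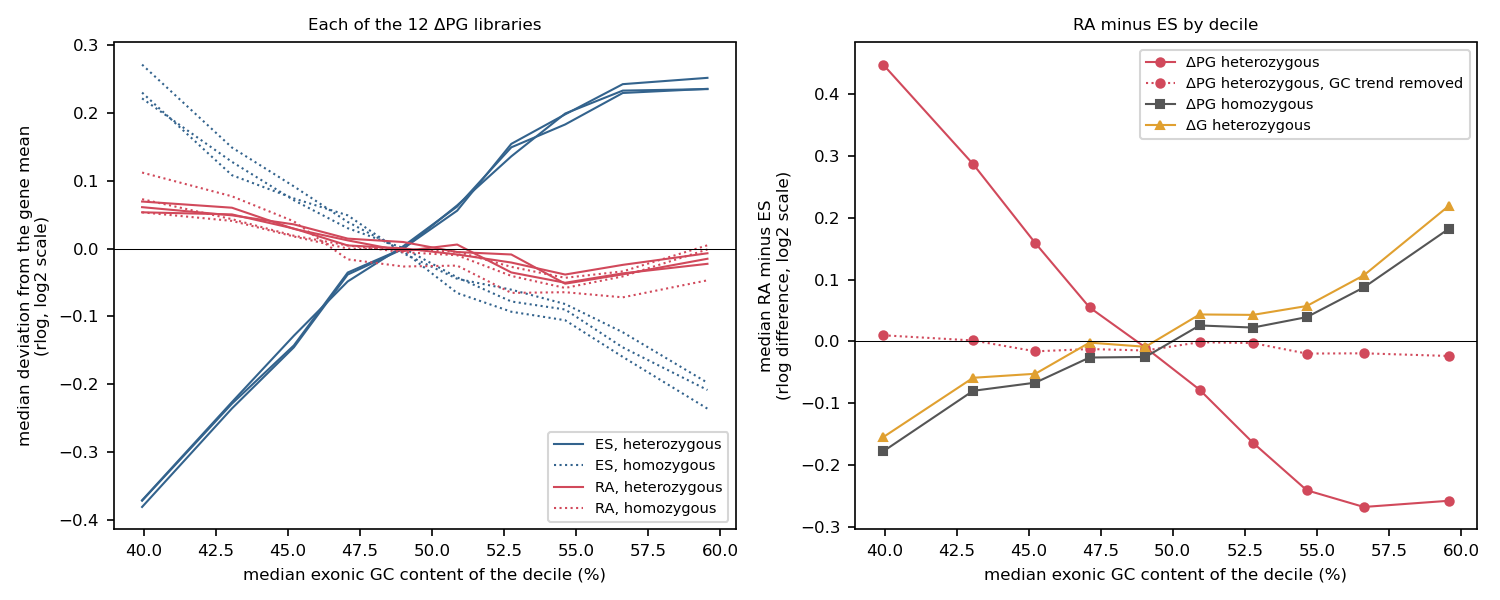
Left, the median deviation from the gene mean (rlog, log2 scale) in 10 bins of exonic GC content (%) for each of the 12 ΔPG libraries, 1 line a library. Right, the median of RA minus ES in the same kind of bins for heterozygous ΔPG cells before and after removal of the trend, homozygous ΔPG cells and heterozygous ΔG cells. The 3 heterozygous ES lines rise from about -0.38 to 0.24 and the heterozygous RA lines stay close to 0, so that the difference falls from 0.45 to -0.26 over the bins.

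RA is made from vitamin A and enters the nucleus bound to carrier proteins, where it binds heterodimers of retinoic acid receptors (RARs) and retinoid X receptors (RXRs). These sit on direct repeats of a short core motif and exchange corepressors for coactivators when RA binds. Early targets include genes that bind or degrade RA itself and the Hox genes, and RA drives ESCs out of self-renewal towards neural, endodermal and other fates depending on dose and culture.

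The classical element is a direct repeat of the core motif, which was allowed the spelling AGGTCA, the spelling AGTTCA, the spelling GGGTCA or the spelling GGTTCA, with 5 bases between the repeats. It was searched on both strands of 32851 RefSeq promoters (250 bases before to 50 after the start site, GRCm38.p6). Only 32 of them (0.0974%) held it, for 31 gene symbols of which 10 were tested here. Of these 10, 3 were called higher (Cyp26a1, Rarb and Ppbp) and 2 lower (Blvrb and Prss27), against 18% and 13.6% of all genes, and nothing is read from counts this small. The promoters of Cyp26a1 and Rarb are printed below because these genes are known RA targets, and capitals mark the repeat with its spacer. In Cyp26a1 (chr19:37697558-37697857, plus strand) it runs on the strand opposite to the gene and ends 15 bases before the start site, and in Rarb (chr14:16575427-16575726, minus strand) it runs with the gene and ends 36 bases before it. Spacings of 1 and 2 bases occurred in 73 (0.222%) and 88 (0.268%) promoters. For a spacing of 1, 6 genes were higher and 9 lower of 32 tested, and for a spacing of 2, 4 were higher and 2 lower of 18. The shares over all genes were again 18% and 13.6%, and nothing is read from these counts either.
Cyp26a1: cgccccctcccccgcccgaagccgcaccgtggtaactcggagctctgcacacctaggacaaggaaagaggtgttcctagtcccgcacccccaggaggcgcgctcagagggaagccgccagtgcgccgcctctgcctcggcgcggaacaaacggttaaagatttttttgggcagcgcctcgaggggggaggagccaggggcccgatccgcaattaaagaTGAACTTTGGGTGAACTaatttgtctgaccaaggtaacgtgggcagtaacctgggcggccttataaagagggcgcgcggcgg
Rarb: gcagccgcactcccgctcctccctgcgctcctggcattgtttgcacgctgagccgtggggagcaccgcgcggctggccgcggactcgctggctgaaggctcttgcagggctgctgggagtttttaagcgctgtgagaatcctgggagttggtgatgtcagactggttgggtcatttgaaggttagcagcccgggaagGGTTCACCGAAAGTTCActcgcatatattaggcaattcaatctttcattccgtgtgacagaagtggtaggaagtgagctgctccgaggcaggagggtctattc

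Receptor genes moved in different directions. Rarb, the receptor gene with the element shown above, had rlog values of 4.95, 5.49 and 5.29 in ES and of 7.96, 7.99 and 7.95 in RA, a rise of 2.72 (SE 0.126, adjusted p = 1.34e-06). All RA samples stood more than 2 units above the highest ES sample. Rarg, another receptor gene of the same family, fell from 8.24, 8.32 and 8.31 to 6.69, 6.60 and 6.43, a difference of -1.72 (SE 0.067, adjusted p = 5.71e-07). Rara differed by 0.04 (SE 0.0462, adjusted p = 0.495), with overlapping samples. Rxra rose by 1.18 (SE 0.0959, adjusted p = 2.8e-05). Nrip1, a corepressor that binds RARs in the presence of RA, rose by 2.51 (SE 0.0366, adjusted p = 5.47e-09). Of the 9 receptor and corepressor genes listed, 3 were called higher and 1 lower, against 18% and 13.6% of all genes. The list median was 0.26.

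Genes that bind, make or degrade retinoids rose more uniformly. Of 15 tested, 11 were called higher and 0 lower, with a median of 1.03. Cyp26a1, which encodes the main RA-degrading hydroxylase, had values of 4.74, 4.67 and 4.99 in ES and of 9.40, 9.38 and 9.41 in RA. It rose by 4.60 (SE 0.0799, adjusted p = 1.15e-08), and its paralog Cyp26b1 rose by 4.74 (SE 0.0797, adjusted p = 1.04e-08). The third paralog, Cyp26c1, remained near the floor of the scale in both groups, at -0.88 and -0.82. Stra6, the membrane receptor for retinol-binding protein, rose from 3.83, 3.64 and 3.71 to 7.40, 7.55 and 7.36, by 3.71 (SE 0.0824, adjusted p = 3.74e-08). Crabp2, which carries RA to its receptors, rose by 3.70 (SE 0.0851), whereas the gene of the other cellular RA-binding protein, Crabp1, rose by 0.99 (SE 0.211). Dhrs3, which reduces retinaldehyde back to retinol, rose by 1.98 (SE 0.0583). Rbp4, the retinol-binding protein of blood plasma, rose by 1.03 (SE 0.139). Among the synthetic enzymes, Rdh10 rose by 1.53 (SE 0.119) and Aldh1a2 by 0.63 (SE 0.14). The call of Aldh1a2 was lost under quantile normalization (0.21, adjusted p = 0.275), and Aldh1a3, at -0.32 (SE 0.149), was called lower only there (-0.67). Lrat, which esterifies retinol for storage, was near the floor in every sample. Adjusted p-values of the called genes in this group reached at most 0.0129 (Aldh1a1), which was not called without RA replicate 2 (0.45).

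Hox genes, which give cells their position along the body axis, are arranged in 4 clusters and are classical RA targets, with the genes at the 3′ end of a cluster (low paralog numbers) responding first. All 10 Hoxb genes were called higher, with a median of 2.21. Hoxb2 had values of 3.21, 3.32 and 3.82 in ES and of 6.76, 6.95 and 6.69 in RA, a rise of 3.35 (SE 0.167, adjusted p = 1.97e-06). Hoxb1 rose by 2.81 (SE 0.105) and Hoxb9 by 2.42 (SE 0.131). At the other end of the cluster, Hoxb13 rose by 1.59 (SE 0.0916). The smallest difference was 0.67 (SE 0.113) for Hoxb7, whose call was lost under quantile normalization (0.29). In the Hoxa cluster, 8 of 11 genes were called higher and 0 lower, with a median of 1.21. Hoxa5 rose by 3.10 (SE 0.127), and the 3 genes not called were Hoxa6, Hoxa11 and Hoxa13. Hoxa6 was called higher without RA replicate 1 (0.51) and without RA replicate 2 (0.54).

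The Hoxc cluster was split. Of its 9 genes, 5 were called higher and 2 lower, against 18% and 13.6% of all genes, with a median of 0.55. Hoxc8 rose by 2.37 (SE 0.145), whereas Hoxc12 fell from 3.17, 3.54 and 3.83 to 2.27, 1.92 and 2.08 (difference -1.42, SE 0.194, adjusted p = 0.000518) and Hoxc13 fell by 0.79 (SE 0.15). In the Hoxd cluster, 4 of 9 genes were higher, against 18% of all genes, led by Hoxd1 at 1.25 (SE 0.136). Hoxd13 rose by 0.55 (SE 0.112), a call lost under quantile normalization (0.24). Many Hox genes were low in ES, and the rlog transformation compresses the differences of such genes. Genes of the TALE cofactors that bind DNA with Hox proteins rose as well. Meis1 rose from 4.64, 4.46 and 4.79 to 8.60, 8.59 and 8.54, by 3.95 (SE 0.0845, adjusted p = 3.11e-08). Meis2 rose by 2.62 (SE 0.0613). Of the 10 regulators and cofactors listed, 7 were higher and 1 lower, with a median of 1.02. The exception was Cdx1, a caudal homeobox gene that is itself known as an RA target, which fell from 9.01, 9.07 and 9.0 to 5.50, 5.55 and 5.37 (difference -3.55, SE 0.0551, adjusted p = 7.45e-09). The other caudal genes, Cdx2 and Cdx4, were low in both groups and not called.

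The transcription factors of the pluripotency network, which keep ESCs self-renewing, fell strongly. Of 27 core and naive pluripotency genes tested, 21 were called lower and 2 higher, against 13.6% and 18% of all genes, with a median of -3.04. Pou5f1 (Oct4) had values of 11.77, 11.83 and 11.78 in ES and of 7.80, 7.95 and 7.61 in RA, a difference of -4.01 (SE 0.0773, adjusted p = 1.94e-08). Nanog fell from 10.83, 10.85 and 10.84 to 6.53, 6.69 and 6.55 (difference -4.25, SE 0.0429, adjusted p = 1.3e-09). Every RA sample was over 3 units below every ES sample for both genes. Sox2 fell by 3.22 (SE 0.0372), to 6.41, 6.37 and 6.41. Esrrb, an orphan nuclear receptor of the naive state, fell by 4.63 (SE 0.0662), and Nr0b1 (Dax1), a corepressor, fell by 4.46 (SE 0.0822). Zfp42 (Rex1), Tcfcp2l1 and Prdm14 fell by 3.33, 3.57 and 3.26 (SE 0.0408, 0.0303 and 0.1). Klf2 and Klf4 fell by 3.22 and 2.18 (SE 0.0792 and 0.0624). The related Klf5 fell by 0.72 (SE 0.0652), and with the GC trend removed its difference of -0.48 was no longer called.

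A subset did not follow the others. Lifr, the receptor chain for LIF, rose by 0.73 (SE 0.0274, adjusted p = 4.62e-07), a value of 0.35 and no longer called with the trend with gene length removed. Lin28a, an RNA-binding protein that blocks let-7 maturation, rose by 0.70 (SE 0.0409, adjusted p = 4.8e-06). The 4 genes not called were Sall4 (-0.35, SE 0.0236), Dppa4 (-0.43, SE 0.0665), Dppa2 (-0.11, SE 0.0498) and Dppa3 (-0.17, SE 0.0976). Levels after RA differed between members, as they did before it. Means went from 11.79 to 7.78 for Pou5f1 and from 10.91 to 7.58 for Zfp42. For Nr0b1 they went from 8.39 to 3.92, and for Prdm14 from 6.59 to 3.33. In bulk RNA, a partial loss in all cells and a full loss in a share of them cannot be told apart.

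Genes of the formative and primed states, which follow the naive state in the embryo, moved in both directions. Of 13 tested, 5 were called higher and 5 lower, against 18% and 13.6% of all genes. Sall2 rose by 1.90 (SE 0.0689) and Fgf5, the usual marker of the primed epiblast, by 1.46 (SE 0.147). Foxd3 fell from 5.69, 6.13 and 6.15 to 2.71, 2.88 and 3.17 (difference -3.07, SE 0.17, adjusted p = 3.45e-06). Otx2 fell by 0.57 (SE 0.168, adjusted p = 0.0243), but this call was lost without ES replicate 1 and without ES replicate 3, at -0.48 in both cases. The list median was 0.10, and it was -0.14 under quantile normalization and -0.32 over the 8 members whose mean reached 3 (-0.19 with the GC trend removed), so no direction is given for the list. For the primitive streak and mesendoderm, 5 of 14 genes were lower and 1 higher, against 13.6% and 18% of all genes. The median of this list was -0.09. Those that fell were Lefty1 (-1.79, SE 0.0489), Lefty2, Nodal (-1.29, SE 0.0389), T (Brachyury, -1.32, SE 0.161) and Eomes (-0.74, SE 0.133). Lefty1, Lefty2 and Nodal belong to the Nodal pathway, which ESCs also express. Lhx1, a homeobox gene, was the exception and rose by 2.16 (SE 0.129).

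Of the 20 tested genes of the extraembryonic endoderm, 16 were called higher and 0 lower, with a median of 2.36. This lineage forms the yolk sac and secretes much of the embryo's first basement membrane. Gata6, its leading transcription factor, had values of 3.15, 3.27 and 3.30 in ES and of 7.08, 7.21 and 7.02 in RA, a rise of 3.86 (SE 0.0847, adjusted p = 3.52e-08). Gata4 rose by 2.98 (SE 0.22), Sox17 by 2.46 (SE 0.136), Foxa2 by 2.27 (SE 0.12) and Sox7 by 2.24 (SE 0.193). Cubn, an endocytic receptor of the visceral endoderm, rose from 4.51, 4.68 and 4.95 to 9.68, 9.69 and 9.67, by 4.96 (SE 0.101, adjusted p = 2.49e-08). Dab2, an endocytic adaptor, and Pdgfra, a growth factor receptor of the primitive endoderm, rose by 3.91 (SE 0.0763) and 3.75 (SE 0.106). Not all members rose. Hnf4a, a factor of the visceral endoderm, differed by -0.48 (SE 0.136) and lay close to the limit. It was called lower without ES replicate 3 (-0.55), without RA replicate 1 (-0.53), without RA replicate 3 (-0.55), and under quantile normalization (-0.87) and median centering (-0.52). Apoa1 was near the floor in every sample, and Amn (0.21, SE 0.174) and Fst (0.04, SE 0.104) were not called.

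Basement membrane genes did not all rise. Of 10 tested, 6 were higher and 1 lower, against 18% and 13.6% of all genes, with a median of 0.92. Col4a1, a type IV collagen chain, rose from 7.47, 7.22 and 7.14 to 11.23, 11.24 and 11.19, by 3.94 (SE 0.0779, adjusted p = 2.13e-08). The laminin chains Lamb1 and Lama1 rose by 3.73 (SE 0.0636) and 1.92 (SE 0.0233). Nid1, a linker between laminin and collagen IV, fell (difference -1.14, SE 0.032, adjusted p = 1.19e-07).

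Among trophectoderm markers, 7 of 11 were called higher and 1 lower, against 18% and 13.6% of all genes, with a median of 1.46. Cdx2, a factor that specifies this lineage, had values of 2.02, 1.74 and 2.44 in ES and of 2.20, 1.89 and 2.00 in RA, Elf5 was near the floor in every sample, and Tcfap2c (AP-2 gamma) fell by 1.47 (SE 0.0756, adjusted p = 2.37e-06). The transcription factor genes Gata3, Hand1 and Gata2 rose by 2.54 (SE 0.107), 1.70 (SE 0.116) and 1.47 (SE 0.12). Krt7, a keratin of simple epithelia, rose by 2.80 (SE 0.102), the placental gene Plac1 by 1.54 (SE 0.144), and the homeobox genes Rhox6 and Rhox9 by 1.46 (SE 0.159) and 1.32 (SE 0.185). Several of these, such as Gata2, Gata3, Hand1 and Krt7, are expressed in other tissues too.

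The neural list held 10 genes called higher and 1 lower of 23, against 18% and 13.6% of all genes, with a median of 0.22. The other 12 were not called. Only 11 of the 23 had a mean rlog value of at least 3, and 2 further members were 0 in every sample. The genes that rose were led by Cdh2 (N-cadherin, 3.45, SE 0.114), the orphan receptor gene Nr2f2 (3.04, SE 0.131), Irx3 (2.91, SE 0.0999) and Pax6 (2.60, SE 0.112). Pax6 rose from 2.53, 2.67 and 2.81 to 5.23, 5.32 and 5.26, and Nr2f1 by 2.35 (SE 0.103). Fabp7, a radial glia gene, was at the floor in every sample, and Tubb3, a neuronal tubulin that ESCs also express, fell by 0.83 (SE 0.043). Genes of epithelial and mesenchymal character rose in part, with 10 of 15 higher and 0 lower and a median of 1.12. Krt18 rose by 4.33 (SE 0.0316, adjusted p = 4.23e-10) and its partner Krt8 by 3.13 (SE 0.0518). Cldn6, a tight junction gene, rose by 3.50 (SE 0.108), and Zeb2, a repressor of E-cadherin, by 3.08 (SE 0.166). Cdh1 (E-cadherin) itself had values of 10.33, 10.34 and 10.39 in ES and of 9.85, 9.92 and 9.93 in RA, and its difference of -0.45 (SE 0.0295) was not called. Vim (vimentin) rose by 0.79 (SE 0.019).

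**Figure D2:**
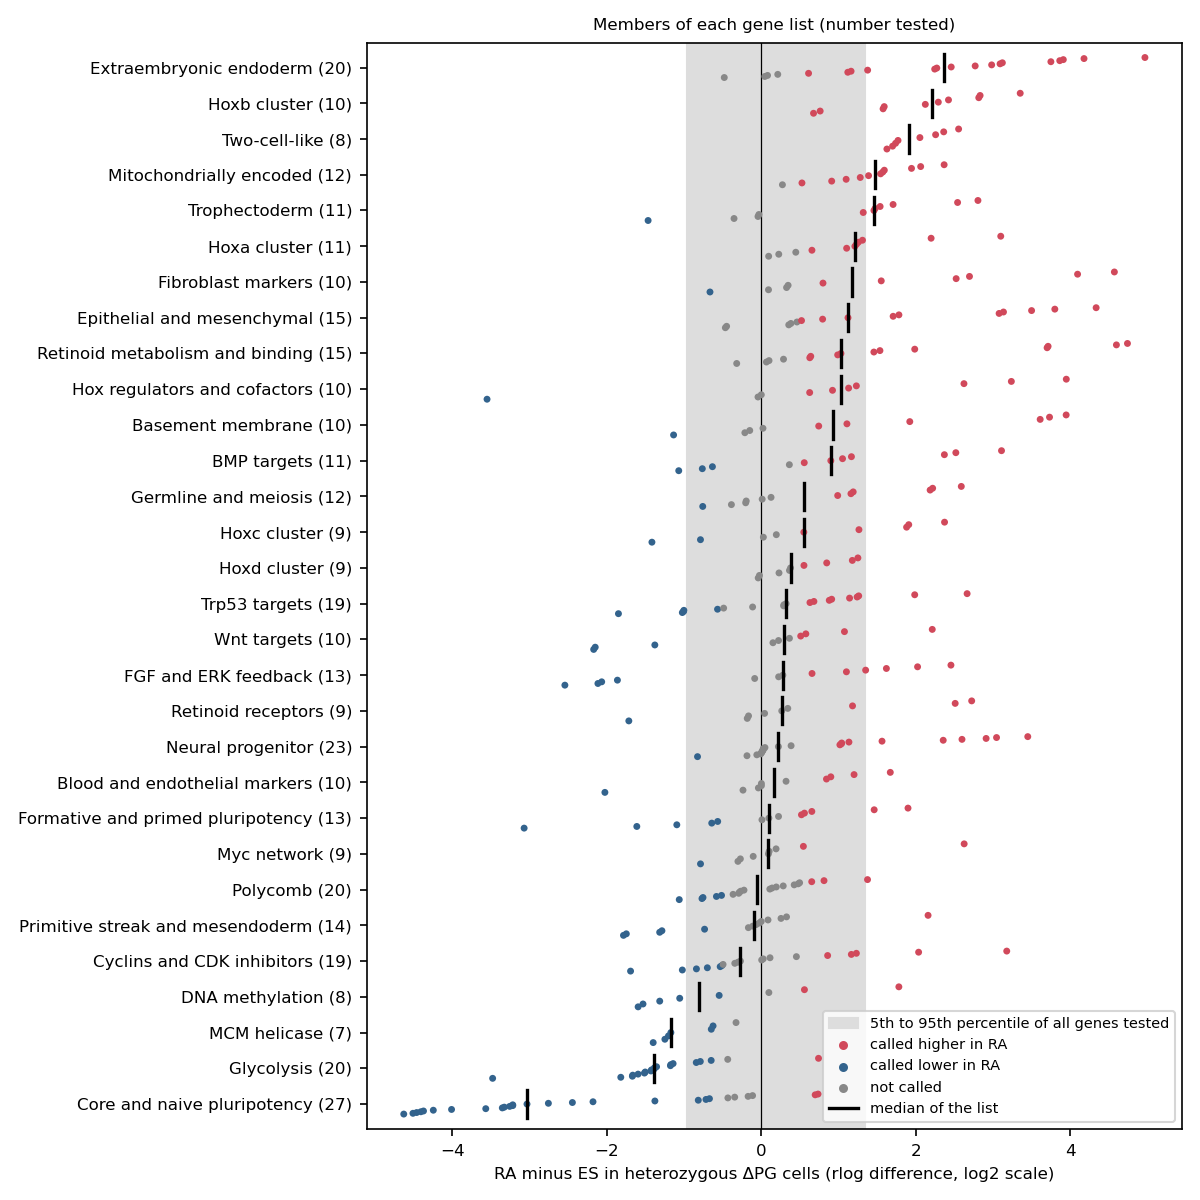
RA minus ES (rlog difference, log2 scale) of each tested member of 30 gene lists, 1 point a gene, ordered by the median of the list, which is the black bar. The grey band spans the middle 90% of all genes tested, from -0.97 to 1.34. Extraembryonic endoderm, Hoxb, 2-cell-like, mitochondrially encoded and trophectoderm genes have medians to the right of the band. The core and naive pluripotency, glycolysis and MCM helicase lists, the last with Mcm10 included, have medians to its left.

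The 10 largest rises among the called genes with distinct samples were H19, Acta2, Tagln, Cubn, Pmp22, Cyp26b1, Cyp26a1, Col3a1, Col12a1 and Ecm1. H19, an imprinted noncoding RNA, led with 8.90, 8.79 and 8.88 in ES and 14.21, 14.22 and 14.20 in RA, a rise of 5.35 (SE 0.0279, adjusted p = 1.52e-10). Acta2 and Tagln, genes of smooth muscle actin and its binding protein transgelin, rose by 5.13 (SE 0.0563) and 5.12 (SE 0.0873). Pmp22, a small membrane glycoprotein, rose by 4.76 (SE 0.0617). The collagen genes Col3a1 and Col12a1 rose by 4.57 (SE 0.105) and 4.51 (SE 0.0763), and Ecm1, an extracellular matrix protein, by 4.40 (SE 0.0433).

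The 10 largest falls were Sept1, Esrrb, Tdgf1, Nr0b1, Fgf4, Dppa5b, Tdh, Trpm1, Nanog and Nphs1. Sept1, a septin, fell from 9.58, 9.62 and 9.60 to 5.05, 4.63 and 4.78 (difference -4.78, SE 0.0989, adjusted p = 2.75e-08). Tdgf1 (Cripto), the Nodal co-receptor, fell by 4.51 (SE 0.0269), and Fgf4, the growth factor that ESCs secrete and that acts through ERK, by 4.41 (SE 0.0409). Tdh, the threonine dehydrogenase on which mouse ESC metabolism depends, fell by 4.37 (SE 0.044). Trpm1, a cation channel, and Nphs1, a slit diaphragm protein of the kidney, fell by 4.33 (SE 0.0717) and 4.20 (SE 0.109). Dppa5b is a special case: its ES samples read 9.92, 6.18 and 4.97, against 2.55, 2.77 and 2.60 in RA, and it is near-identical to Dppa5a, with which it can share reads. Its difference of -4.38 has an SE of 1.11 and is uncertain. Dppa5a itself fell by 2.76 (SE 0.0232) from 12.41, 12.43 and 12.38 in ES.

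Signalling readouts moved in both directions within each pathway listed. Of 13 FGF and ERK feedback genes, 6 were higher and 4 lower, against 18% and 13.6% of all genes. The phosphatase genes Dusp6 and Dusp4, which switch off ERK, rose by 2.02 (SE 0.0853) and 2.45 (SE 0.128), while Etv5, a target of FGF signalling, and Spry4, an inhibitor of it, fell by 2.54 (SE 0.0751) and 2.07 (SE 0.12). The list median of 0.28 was 0.49 with the GC trend removed and -0.03 under quantile normalization. Of 10 Wnt targets, 4 were higher and 3 lower, beside the same all-gene shares, and no direction is given for the list. Dkk1, a secreted Wnt inhibitor, rose by 2.21 (SE 0.0838). The 3 that fell were Sp5 (-2.15, SE 0.101), Notum (-2.17, SE 0.183) and Axin2 (-1.38, SE 0.0553), direct targets of β-catenin in many tissues. Of 11 BMP targets, 7 were higher and 3 lower, against 18% and 13.6% of all genes. The BMP median was 0.90 (0.65 with the GC trend removed). Id2, Id3 and Msx1 rose by 3.11 (SE 0.0643), 2.37 (SE 0.0543) and 2.52 (SE 0.159), whereas the ligand gene Bmp4 fell by 1.07 (SE 0.0701).

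Of 8 genes of DNA methylation tested, 5 were lower and 2 higher, against 13.6% and 18% of all genes, with a median of -0.80. Uhrf1, which recruits the maintenance methyltransferase to replicated DNA, fell from 11.49, 11.49 and 11.46 to 9.87, 9.92 and 9.86 (difference -1.60, SE 0.0224, adjusted p = 4.69e-09), and Dnmt3l, a cofactor of de novo methylation, fell by 1.06 (SE 0.0228). The maintenance methyltransferase gene Dnmt1 fell by 0.55 (SE 0.0193), and the de novo methyltransferase gene Dnmt3a rose by 0.56 (SE 0.0416). The call of Dnmt1 was lost with the GC trend removed (-0.36) and under quantile normalization (-0.29), and that of Dnmt3a with the length trend removed (0.05). The TET dioxygenases, which oxidize 5-methylcytosine, diverged: Tet1 and Tet2 fell by 1.32 (SE 0.0401) and 1.53 (SE 0.0245), and Tet3 rose by 1.78 (SE 0.0735). Among 20 Polycomb genes, 5 were lower and 3 higher, against 13.6% and 18% of all genes. All 20 had a mean of at least 3. Of the 11902 such genes, 2711 were lower and 3183 higher when tested alone, so no direction is given for the list. Eed, a core subunit of PRC2, fell by 1.06 (SE 0.035), and Bmi1, a subunit of PRC1, rose by 1.37 (SE 0.0919).

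The MCM list of 7 genes holds helicase genes, needed to open DNA for replication, and Mcm10. Of the 7, 6 were lower and 0 higher, with a median of -1.17 (-0.96 with the GC trend removed, with 5 lower). Mcm5 fell from 12.01, 12.02 and 12.01 to 10.79, 10.73 and 10.77 (difference -1.25, SE 0.0182, adjusted p = 5.47e-09), and Mcm10, a replication initiation factor, by 1.40 (SE 0.0348). Mcm4 differed by -0.33 (SE 0.0451) and was not called. Cyclins and CDK inhibitors were mixed, with 5 higher and 6 lower of 19, against 18% and 13.6% of all genes. All 19 had a mean of at least 3. Of the 11902 such genes, 3183 were higher and 2711 lower when tested alone, so no direction is given for the list. The D-type cyclins crossed: Ccnd1 fell by 1.69 (SE 0.0527), and Ccnd2 rose from 3.43, 3.69 and 3.60 to 6.75, 6.82 and 6.67, by 3.18 (SE 0.0929, adjusted p = 1.41e-07). Cdkn2b (p15), an inhibitor of CDK4 and CDK6, rose by 2.03 (SE 0.196). In the Myc network, Mxd4, an antagonist of Myc, rose by 2.62 (SE 0.0787), and Myc rose by 0.54 (SE 0.09), a call lost without ES replicate 2 (0.45) and under quantile normalization (0.42).

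Glycolysis genes fell as a group, with 18 of 20 called lower and 1 higher and a median of -1.39 (-1.26 with the GC trend removed, with 17 lower). Pkm2, the pyruvate kinase gene, fell from 14.58, 14.57 and 14.57 to 12.77, 12.75 and 12.73 (difference -1.82, SE 0.0115, adjusted p = 2.33e-10). Pfkp, the platelet form of phosphofructokinase, had the largest fall, 3.48 (SE 0.0649), and Aldoa fell by 1.67 (SE 0.0162). Eno3, the muscle enolase gene, rose by 0.74 (SE 0.0575).

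Trp53, the gene of p53, fell from 7.15, 6.95 and 7.05 to 6.06, 6.19 and 5.87 (difference -1.01, SE 0.093, adjusted p = 5.6e-05), and the ES and RA samples did not overlap. Homozygous cells had means of 4.02 in ES and 3.83 in RA, and their difference of -0.19 (adjusted p = 0.437) was smaller than that of the heterozygous cells by 0.82 (SE 0.196, adjusted p = 0.00661 for the difference between the responses). Of 19 genes of the p53 list, which holds Trp53 and known targets, 9 were higher and 5 lower. The shares over all genes were 18% and 13.6%, and the list median was 0.32. Plk2, a kinase gene, and Ccng1, a p53-induced cyclin, rose by 2.66 (SE 0.16) and 1.26 (SE 0.0278), while Gdf15, a stress cytokine, and the apoptosis gene Bax fell by 1.85 (SE 0.126) and 1.00 (SE 0.0376). Mdm2, the ubiquitin ligase for p53, rose by 0.63 (SE 0.0391), and with the GC trend removed its difference of 0.45 was no longer called. Cdkn1a (p21) fell by 1.02 (SE 0.0419).

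Mitochondrially encoded genes were the group in which the heterozygous ΔPG response was furthest from the other responses. Of 12 tested, 11 were called higher and 0 lower, with a median of 1.46. mt-Co3, a subunit of cytochrome c oxidase, had values of 12.35, 12.32 and 12.33 in ES and of 13.61, 13.58 and 13.64 in RA, a rise of 1.28 (SE 0.0181, adjusted p = 4.77e-09). mt-Atp8 and mt-Nd3, subunits of ATP synthase and complex I, rose by 2.37 (SE 0.0756) and 2.06 (SE 0.0327). Median differences were -0.48 in homozygous ΔPG cells and -0.33 in heterozygous ΔG cells. The mean rlog value of the mitochondrial genes was 8.73 to 8.76 in the heterozygous ES libraries and 10.1 in the heterozygous RA libraries. It was 10.2 to 10.3 in the homozygous RA libraries and 10.6 to 10.8 in the homozygous ES libraries. The 3 heterozygous ES libraries were thus the lowest of the 12, and in homozygous cells ES lay above RA. The heterozygous ES libraries had the steepest GC trend of the 12, and the homozygous ES libraries had a trend of the opposite sign. The mitochondrial genes had a median exonic GC content of 36.55%, against 49.82% over all genes. With the trend removed, 9 of the 11 genes with a mean of at least 3 were called higher, their median was 0.97 (1.54 before), mt-Co1 (0.91) was at 0.48 and no longer called, and mt-Nd6 (0.52, SE 0.058) turned to -0.14 (adjusted p = 0.151). The call of mt-Nd6 was also lost under quantile normalization (0.41) and median centering (0.49). The part of the library trend in this group was not tested beyond that.

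Responses of heterozygous and homozygous ΔPG cells, which share no sample, were compared directly as an interaction. It was positive (a higher response in heterozygous cells) for 1580 genes (7.19%) and negative for 1476 (6.72%). With the GC trend removed these counts were 688 (5.78%) and 434 (3.65%) of 11904 genes, against 1480 and 1401 of the same genes before. The 3 largest positive differences belonged to mt-Atp8 (2.76, SE 0.108, adjusted p = 9.09e-10), mt-Nd3 (2.62, SE 0.0529) and mt-Co3 (2.12, SE 0.0357). All 3 kept their call with the GC trend removed, at 1.58, 1.54 and 1.47. The 3 largest negative ones belonged to Spire2, an actin nucleator, Ccdc85b, a coiled-coil protein, and Inhbb, the activin beta B subunit. Spire2 fell by 1.32 in heterozygous cells and differed by 0.09 in homozygous cells (interaction -1.41, SE 0.253, adjusted p = 0.000797). For Ccdc85b the responses were -0.93 and 0.39 (interaction -1.33, SE 0.24, adjusted p = 0.00086), and for Inhbb -3.19 and -1.89 (interaction -1.30, SE 0.219, adjusted p = 0.000468). With the GC trend removed the interactions of Spire2, Ccdc85b and Inhbb were smaller, at -0.93, -1.04 and -0.82, and still called. Among the Hox clusters, Hoxa2 alone was called (0.87, SE 0.201, adjusted p = 0.00494). Cyp26a1 (0.03, SE 0.189), Rarb (0.21, SE 0.181) and Nanog (0.16, SE 0.0751) were not called, which does not show that their responses were equal.

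Set beside the separately normalized heterozygous ΔG cells, the responses of the main groups had the same sign. Medians in heterozygous ΔPG, homozygous ΔPG and heterozygous ΔG cells were -3.04, -2.87 and -3.21 for pluripotency, 2.21, 2.32 and 2.39 for Hoxb, 2.36, 2.04 and 2.32 for extraembryonic endoderm, 1.03, 1.00 and 1.10 for retinoid metabolism, and -1.39, -0.95 and -1.03 for glycolysis. Cyp26a1 differed by 4.60, 4.57 and 5.88 and Rarb by 2.72, 2.52 and 2.41. Of the genes tested, 16.5% were called higher and 11.3% lower in homozygous ΔPG cells (27.8% in all), and 17.7% and 11.7% in heterozygous ΔG cells (29.5% in all). Differences between the tables were not tested.

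**Figure D3:**
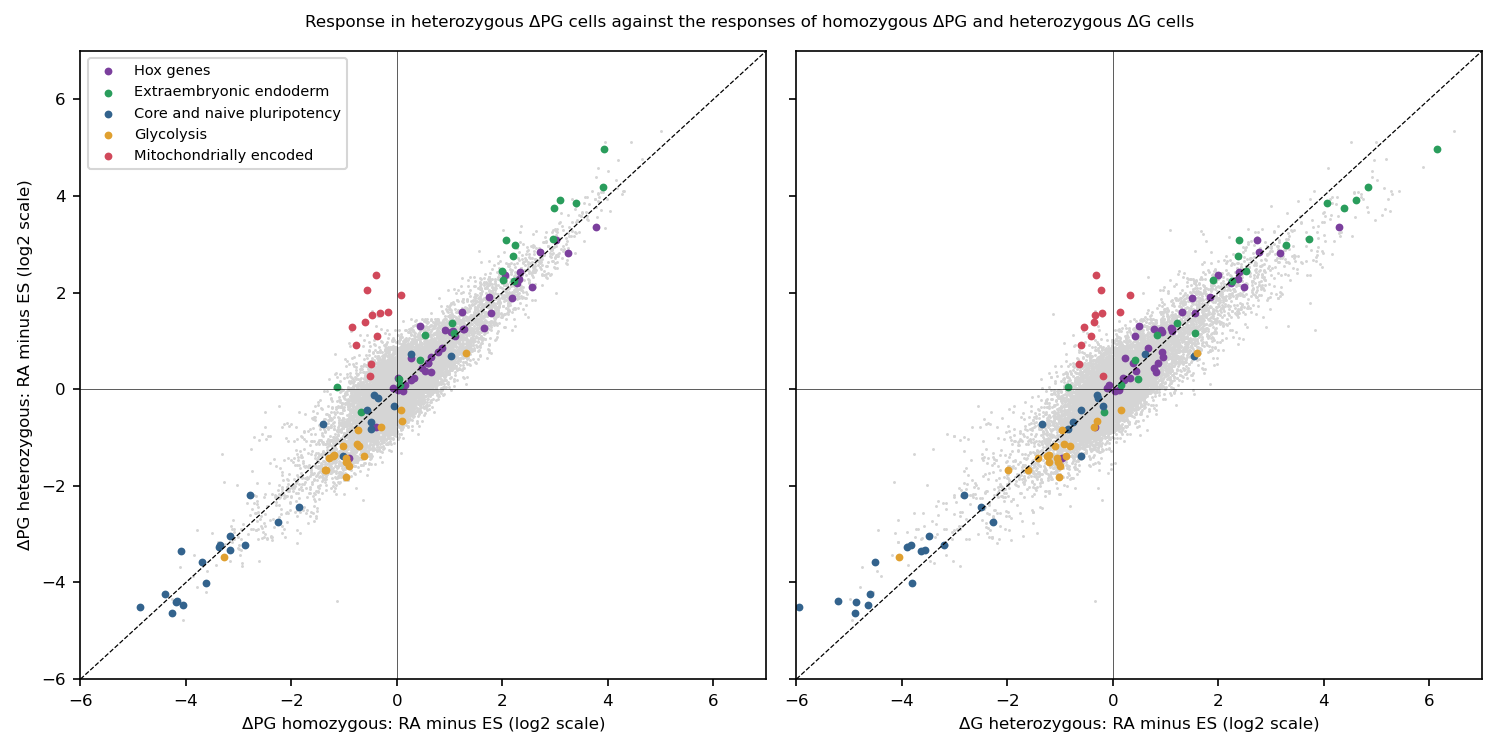
RA minus ES (rlog difference, log2 scale) in heterozygous ΔPG cells on the vertical axes against homozygous ΔPG cells (left) and heterozygous ΔG cells (right), 1 point a gene, for genes whose mean rlog value reached 3 in grey and members of 5 lists in colour. Most coloured points lie along the dashed line of equal responses, and the mitochondrially encoded genes lie above it, with a median of 1.46 on the vertical axis against -0.48 and -0.33 on the horizontal axes.

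All 8 tested genes of the 2-cell-like list, expressed in a small share of ESCs that resemble the embryo after its first cleavage, were called higher, with a median of 1.91. Zscan4f rose from 2.94, 3.07 and 3.06 to 5.85, 5.44 and 5.42, by 2.55 (SE 0.138, adjusted p = 3.05e-06), and Zscan4d by 2.36 (SE 0.0822). Members of the Zscan4 and Dub1 families are near-identical and can share reads, so these are not 8 separate measurements. Of 12 germline and meiosis genes, 6 were higher and 1 lower, against 18% and 13.6% of all genes. The median over the 10 with a mean of at least 3 was 1.07, and 0.72 with the GC trend removed, when 5 were higher and 4 lower. Stra8, which RA induces in germ cells at the entry into meiosis, had values of 7.62, 7.55 and 7.46 in ES and of 8.69, 8.72 and 8.70 in RA, a rise of 1.16 (SE 0.0445, adjusted p = 5.26e-07). Rec8, a meiotic cohesin, rose by 2.22 (SE 0.0667), Gm1564 (Meioc), a meiotic regulator that extends meiotic prophase, by 2.59 (SE 0.0981), and Ddx4, a germ cell helicase, by 2.18 (SE 0.133). Hormad1, a protein of meiotic chromosome axes, fell by 0.76 (SE 0.119). Sycp3 (-0.20, SE 0.134) and Dmc1 (-0.20, SE 0.118), genes of synapsis and strand exchange, were not called, but were called lower with the GC trend removed, at -0.79 and -0.53, and under quantile normalization, at -0.61 for both.

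Markers of other cell types were examined for cells that the cultures could hold. Of 10 fibroblast genes, 6 were higher and 1 lower, against 18% and 13.6% of all genes, with a median of 1.17. The collagen genes Col1a2 and Col1a1 and the proteoglycan gene Dcn rose by 4.09 (SE 0.144), 2.69 (SE 0.0926) and 2.52 (SE 0.0994), while Thy1 fell by 0.67 (SE 0.16) and S100a4 and Lum, with RA means of -0.91 and 1.07, were not called. Of 10 blood and endothelial genes, 4 were higher and 1 lower, against 18% and 13.6% of all genes. Ptprc and Hba-a1, defining genes of blood, were at the floor in every sample. Kdr, a receptor also found on mesoderm, rose by 1.67 (SE 0.135). The other called rises were Cdh5 (1.20, SE 0.17), Tal1 (0.90, SE 0.13) and Tek (0.84, SE 0.19), and Laptm5 fell by 2.03 (SE 0.0724). Of the defining ESC markers, the lowest ES samples read 11.77 for Pou5f1, 10.83 for Nanog, 10.88 for Zfp42 and 9.57 for Sox2.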

How the data were processed

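RNA-seq was analysed in 6 samples, 3 RA and 3 ES, of heterozygous ΔPG cells, grouped by their titles. Per the labels and the study's methods, ribosomal RNA was depleted, stranded libraries were sequenced as 100 bp paired reads, and the authors aligned them with TopHat2 2.1.0 to NCBI37/mm9 with GENCODE gene models, removed duplicates with Picard, counted reads per gene name by strand with HTSeq 0.6.0 and transformed the counts with DESeq2 1.14.1. The deposited values are rlog values on the log2 scale. Whether the transformation used the groups is not stated. No column was without a sample.

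Differences were tested in R 4.3.3 with limma 3.58.1 (two-sided, variance trend) over all varying genes, with only the 6 samples in the fit. The interaction used the 12 ΔPG samples. Exonic GC content and length came from NCBIM37 and GENCODE vM1, and each library's lowess trend (span 0.3) was removed for genes whose mean reached 3 on the rlog scale. The scripts were checked on simulated data. Promoters came from RefSeq (GRCm38.p6). Genes were named as targeted and neighbouring genes, the 10 largest rises and falls among called genes with samples that do not overlap, leaving out predicted genes, clones, pseudogenes and small RNAs, list members with the largest differences or against their list, and the 3 largest interactions in each direction. The samples, lists, limits and tests were chosen with earlier results of these data known. List members were matched by symbol or RefSeq synonym. 4C-seq, RIP-seq and other samples were not analysed here. Some genes that these rules would name are not reported here.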

Additional observations from a re-analysis of the deposited data

Results flagged for a closer look

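The responses to RA of heterozygous and homozygous ΔPG cells were compared for the 201 genes named. Of these, 47 had an interaction called by limma at an adjusted p under 0.1 and a size over 0.5. Their adjusted p ran from 1.16e-13 to 0.0952. The interaction was positive for 31 and negative for 16, against 7.19% and 6.72% of all genes. Some genes were named for a large response or interaction in these same data, so the count describes picked genes. In the values below, a positive number means that RA minus ES was higher in heterozygous cells. Of the 45 also fitted with the GC trend removed, 24 were still called in the same direction.

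Mitochondrially encoded genes were the most different, with 2.76 for mt-Atp8, 2.62 for mt-Nd3, 2.12 for mt-Co3, 1.69 for mt-Co1 and 1.02 for mt-Nd6. With the GC trend removed mt-Nd6 was at 0.01 and no longer called. Extraembryonic endoderm genes differed by 1.18 for Fst, 1.04 for Cubn, 0.82 for Dab2, 0.77 for Pdgfra and 0.73 for Gata4. Matrix and contractile genes among those named differed by 1.18 for Acta2, 0.76 for Col3a1, 0.67 for Tagln and 0.64 for Cnn1. The others were 0.61 for Ecm1, 0.53 for Lama1 and 0.50 for Col12a1, the last no longer called with the GC trend removed (0.37). Several of these were named for large rises in heterozygous cells. Over the whole basement membrane list, 1 interaction was called positive and 2 negative.

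Among genes of the cell cycle and the p53 list, the values were 1.47 for Cdkn1a, 1.00 for Ccng1, 0.54 for Mdm2 and -0.82 for Trp53. Ccng1 (0.48) and Mdm2 (0.32) were no longer called with the GC trend removed. Cdkn1a fell less in heterozygous cells, by 1.02 against 2.49. Retinoid and Hox genes differed by 0.87 for Hoxa2, 0.59 for Rbp4, 0.55 for Cyp26b1, 0.53 for Rdh10, -0.53 for Rxra and -0.94 for Cdx1. Rdh10 (0.35), Rxra (-0.14) and Cdx1 (-0.44) lost their call with that trend removed. Pluripotency genes differed by 0.68 for Klf5, 0.61 for Klf4 and -0.50 for Dppa5a, the last no longer called with the GC trend removed (-0.48). Germline genes differed by 1.29 for Hormad1 and 1.05 for Sycp3, neither of which was called with the GC trend removed (0.43 and 0.20).

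The remaining positive values were 0.65 for Bmi1, 0.53 for Dkk1 and 0.51 for Eed, none of which was called with the GC trend removed (0.23, 0.36 and 0.41). The remaining negative values were -0.51 for Sp5, -0.51 for Msx1, -0.51 for Nodal, -0.57 for Eno3, -0.58 for Nphs1, -0.65 for Uhrf1, -0.73 for Sept1, -0.85 for Pkm2, -1.16 for Notum, -1.30 for Inhbb, -1.33 for Ccdc85b and -1.41 for Spire2. With the GC trend removed, Sp5 (-0.01), Msx1 (-0.09), Nodal (-0.17), Eno3 (-0.31), Nphs1 (-0.25), Uhrf1 (-0.37), Sept1 (-0.38) and Pkm2 (-0.49) were no longer called, and Notum was at -0.71. With 1 sample set per genotype, genotype and the handling of each set of libraries cannot be told apart.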

How the results depend on the processing

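Of 6947 genes called, counts were 12607 (6979 higher, 5628 lower) without a limit on the difference and 2781 (1766 higher, 1015 lower) under the stricter rule. Leaving out 1 sample gave 6921 to 6992 (3947 to 3986 higher, 2960 to 3010 lower). Quantile normalization turned the split to 3313 higher and 3498 lower. Same-numbered ES and RA samples did not deviate together (correlations -0.0081, 0.019 and -0.0088), and the replicate block gave 6947 calls (3963 higher, 2984 lower), and 3007 against 3056 interactions. With the GC trend removed, 1122 interactions were called of 11904 genes, against 2881 of the same genes before, and leaving out 1 sample gave 2974 to 3033 over all genes. The GC correlation averaged 0.336 in ES and -0.0467 in RA libraries, and 0.412 and -0.0804 over genes with a mean of at least 5.

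5430416N02Rik (-0.44) was called without the size limit (-0.44), under quantile normalization (-0.78), with the GC trend removed (-0.50, also with the replicate block), and ranged from -0.58 to -0.26 without 1 sample, and the block alone gave -0.44 with no call. mt-Nd6 reversed to -0.14 with the GC trend removed, also with the replicate block. Of the 201 genes named, 195 kept their call without any 1 sample, and the block changed none. Of 32 list medians, 3 changed sign under quantile normalization. The causes were not tested. Unknown depth limits what can be said of low genes.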

Other observations

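A pair of gene groups that hold several of the largest rises was listed after the values had been seen, so their counts are descriptions of genes picked for rising. Of 27 imprinted genes, which are expressed from 1 parental allele, 18 were called higher in RA and 1 lower, with a median of 1.11. Beside H19, Peg3 rose from 9.47, 9.48 and 9.46 to 13.53, 13.52 and 13.53, by 4.06 (SE 0.014), and the RA samples of this gene stood far above the ES samples. Peg10, derived from a retrotransposon, rose by 3.98 (SE 0.041), Dlk1, a Notch ligand family member, by 3.90 (SE 0.069), Mest by 2.85 (SE 0.0231) and the growth factor gene Igf2 by 2.82 (SE 0.19). Igf2r, the receptor that clears IGF2, fell by 1.02 (SE 0.0365). Which allele was expressed is not in these values.

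All 14 genes of the actin and contractile list were called higher, with a median of 2.61. Beside Acta2 and Tagln, Thbs1, a matrix glycoprotein, rose by 3.84 (SE 0.106), Myl9, a myosin light chain, by 3.59 (SE 0.151), and Cnn1, calponin of smooth muscle, by 3.21 (SE 0.122).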
